A study of Mus musculus with 2 samples.

Results

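The region studied here was the 4500 kb of distal mouse chromosome 12 from 112500001 to 117000000 (mm8), given as spanning the immunoglobulin heavy chain locus. It was cut into all 450 windows of 10 kb that it holds, of 246252 such windows on chromosomes 1 to 19. The windows were chosen by position, and every window held at least 1 input read. Position 113880001 divided them into 138 windows before it and 312 from it on, the side after. That position had been placed at a fall of input density in these same data, and a raised ChIP signal before it was known when the region was chosen. The difference between the sides is therefore a description, with no test.

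The data came from 2 libraries, each the only one of its group. One was a chromatin immunoprecipitation (ChIP-seq) of the transcription factor EBF1 with a rabbit polyclonal antibody made for the study, and the other was an input library without an antibody. Both were made from B cells of the spleens of adult C57BL/6 mice with no genetic change or treatment named in the labels. The cells had been depleted with beads of those carrying CD43, AA4.1, CD9, CD4 or CD8, which left mostly mature follicular B cells by surface staining. No RNA was measured, so the labelled cell type was not checked against marker genes. The labels do not give the number of mice or say whether they were pooled. The ChIP library held 24354888 aligned reads and the input 23053279, so 3 reads, the limit that a count of 0 allows, were 0.123 and 0.130 per 1000000 aligned reads. With 1 library per group no test between the libraries was possible, and each interval below is a 95% interval that covers counting error only.

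The heavy chain locus encodes the heavy chain of antibodies. A developing B cell joins a D segment to a J segment and then a V segment to the joined pair, and the DNA between the joined segments is removed. The constant genes, which set the antibody class, lie on the other side of the J segments together with enhancers of the locus. EBF1 is required for the B cell lineage and acts from the early stages at which this joining takes place. In the RefSeq gene table of another build, GRCm38.p6, the order along the chromosome from the side of the centromere is Tmem121, then the 8 constant genes Igha, Ighe, Ighg2c, Ighg2b, Ighg1, Ighg3, Ighd and Ighm, and then 4 J segments. D segments, the Adam6b and Adam6a genes, 121 V segments and 63 V pseudogenes follow, and Zfp386 and Vipr2 come next. That table was used for names and order only. No annotation or sequence of mm8 was used, so no window or peak is assigned to a gene and the extent of the locus within the region was not checked.

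The windows fell into 3 kinds. Before 113880001 input density was full and EBF1 ChIP reads were raised over input. Behind it lay a stretch of 2620 kb, to 116500000, in which both libraries were thin and ChIP reads were below input. The last 500 kb of the region, the distal flank, had full density again and equal ChIP and input. The end of the stretch at 116500000 and the smaller divisions used below were set after the values had been seen.

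**Figure D1:**
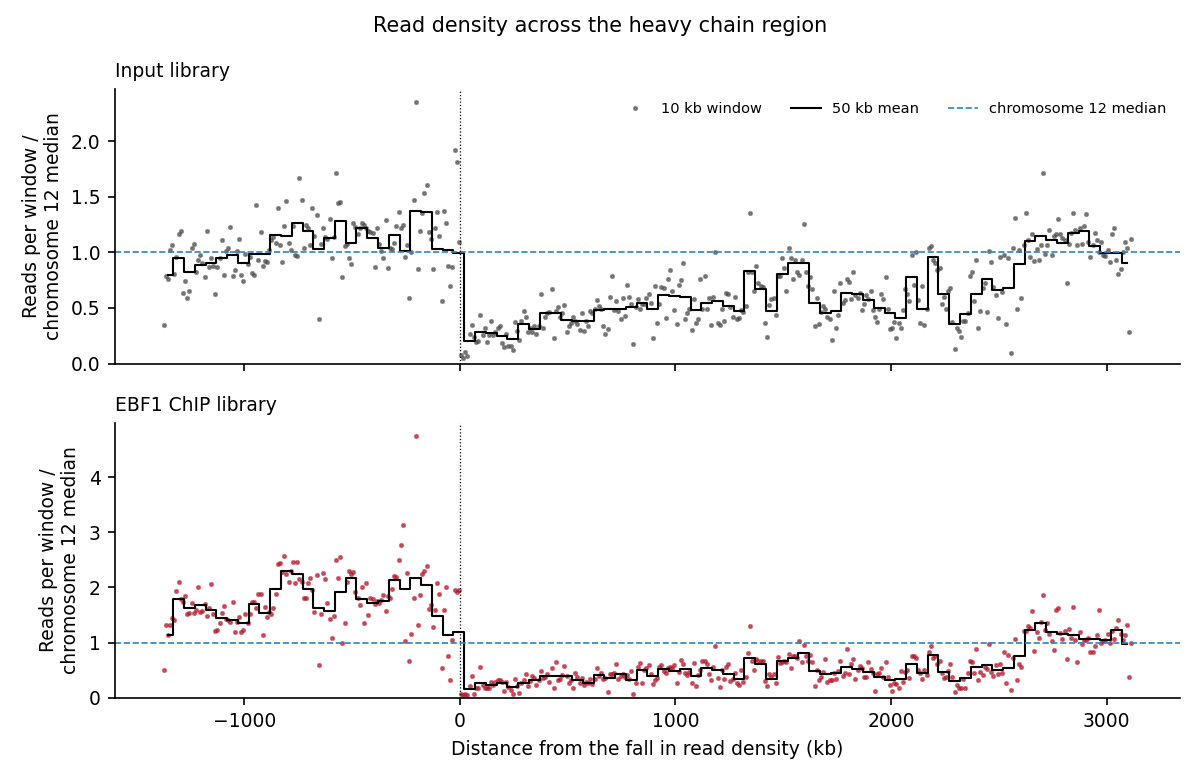
Reads per 10 kb window (points) and 50 kb means (steps) in the input (upper) and EBF1 ChIP library (lower), divided by each library's chromosome 12 median, against the distance in kb from position 113880001. Both libraries drop at distance 0 and then climb unevenly. Their 50 kb means stay below the median until they step up to it about 2620 kb away. The ChIP library alone stands well above its median before the drop.

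Input density is given relative to 93 reads, the chromosome 12 median of a 10 kb window. Before 113880001 the mean was 1.08 (1.06 to 1.10), and single windows ran from 0.344 to 2.35 with a median of 1.06. In the stretch the mean was 0.534 (0.525 to 0.543), and windows ran from 0.0538 to 1.35 with a median of 0.495. In the distal flank the mean was 1.08 (1.05 to 1.11). Input density in the stretch was thus 0.495 (0.483 to 0.507) of that before it and 0.496 (0.480 to 0.512) of that beyond it. Over the whole side from 113880001 on the mean was 0.621, or 0.576 (0.563 to 0.589) of the side before.

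Low windows were common in the stretch and rare around it. Input was at most 0.5 of the median in 137 of the 312 windows from 113880001 on, 43.9%, and 136 of these lay in the stretch. Before 113880001 it was so in 2 of 138. The background for this limit was 5.62% of windows on chromosomes 1 to 19 and 8.04% on the rest of chromosome 12. A window with few mappable positions holds few reads, so the count was repeated over windows with input in at least 8 of their 10 bins of 1 kb. Of these, 113 of 239 in the stretch, 0 of 135 before it and 0 of 49 in the distal flank were at or below 0.5, against 1.87% on chromosomes 1 to 19 and 2.9% on the rest of chromosome 12. Without the limit on covered bins, input at or below 0.25 was found in 23 windows, all in the stretch (background 1.74%, also without it). Some of these windows were poorly covered, such as the one at 113890001 with 4 of 10 bins. The part of few mappable positions in this count was not tested.

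The fall itself took a few kb and appeared at the same place in both libraries. Input held 17.9 reads per kb from 30 to 20 kb before 113880001, 16.9 from 20 to 10 kb, 13.4 from 10 to 3 kb and 2.67 in the last 3 kb. It then held 1.20 in the first 5 kb after, 0.400 from 5 to 20 kb and 0.800 from 20 to 40 kb. ChIP reads went from 24.4 per kb between 10 and 3 kb before to 2.67 in the last 3 kb and 0.467 from 5 to 20 kb after. Taken over 40 kb on each side, the largest fall of the input lay at 113879000, from 535 to 27 reads, a ratio of 0.0505 (0.0329 to 0.0743). The ChIP library fell most at 113881000, from 631 to 18 reads, a ratio of 0.0285 (0.0168 to 0.0455). The libraries share their mappable sequence, and the raised ChIP signal before the position was known beforehand. The shared place is therefore no separate check. Each position was taken as the largest fall of its library, which these intervals leave out. More than 100 kb away, the largest fall within the region was to 0.408 in the input and to 0.398 in the ChIP library.

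**Figure D2:**
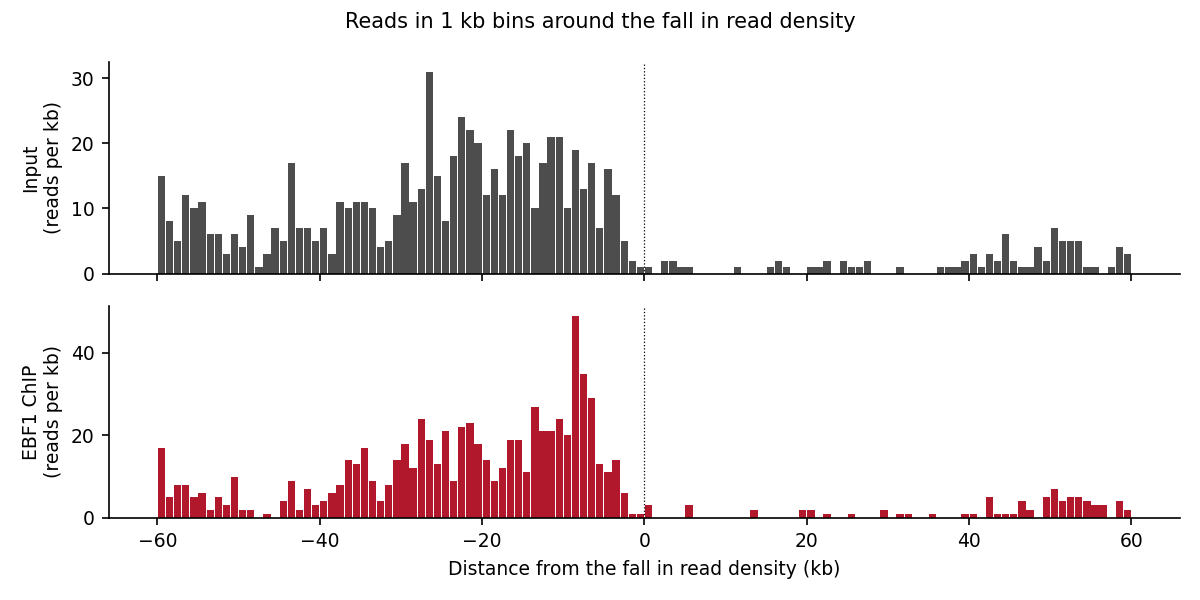
Reads per 1 kb bin in the input (upper) and EBF1 ChIP library (lower) within 60 kb of position 113880001. Both drop within the last 3 kb before distance 0, and hardly any reads lie in the 40 kb after it.

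The 4 windows of 10 kb on each side show the same step. Before the fall the input held 81, 179, 169 and 102 reads and the ChIP library 97, 179, 177 and 179. After it the input held 7, 5, 10 and 6 reads and the ChIP library 6, 4, 6 and 4. No window after the fall came near any window before it. In these 4 later windows only 4 to 7 of the 10 bins held an input read.

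Behind the fall, input density climbed with distance. Its mean relative to the median was 0.114 (0.0854 to 0.149) in the first 50 kb, 0.260 (0.243 to 0.278) up to 114250000, 0.493 (0.476 to 0.509) from there to 115000000, and 0.622 (0.609 to 0.635) from there to 116500000. The ChIP library climbed alike, with 0.235, 0.410 and 0.520 of its own median in the last 3 of these intervals. Over the 262 windows of the stretch, Spearman's rho between distance and reads was 0.48 in the input and 0.41 in the ChIP library. With the 239 windows of at least 8 covered bins it was 0.44 and 0.36. Input also rose along the same coordinate before the fall, with a rho of 0.42 over 138 windows, so a climb was not particular to the stretch. The windows share 2 libraries and their neighbours' sequence, so these are descriptions. The climb was not even. In windows of 250 kb input was 0.282 of the median from 114000001, then 0.415, 0.503, 0.560, 0.585, 0.752, 0.548, 0.543, 0.578 and 0.725, before it reached 1.12 from 116500001.

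Such low density over well-covered sequence was rare elsewhere. Autosomal windows of 250 kb outside the region were compared if they held at least 500 input reads. In 9272 of them at least 80% of the 1 kb bins had input, and 1 of these was as low as the window at 114000001 (0.0108%). The next windows, at 114250001 and 114500001, were matched or undercut by 14 and 26 of them. Those at 115250001 and 116250001, the fullest of the stretch, were matched or undercut by 198 and 145. Coverage was itself judged by input reads, so this limit drops thin windows. Without it, over 9455 windows, 0.254%, 0.762% and 1.17% were as low as those at 114000001, 114250001 and 114500001.

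Reads per mappable position were measured next, to separate thin coverage from sequence that cannot be mapped. For each place already read in the other library or on the other strand, the measure asks how often a read of the library begins on the same 35 bp. The share was divided by its median over 2368 autosomal windows of 1 Mb outside the region with at least 3000 input reads. Their middle 90% ran from 0.854 to 1.19 for input. Before 113880001 the input rate was 0.968 (0.880 to 1.06), with 440 hits at 57724 places. Its first 500 kb stood lower, at 0.832 (0.690 to 0.995), which 2.66% of autosomal windows matched or undercut. With only the places read in the ChIP library those 500 kb were at 0.738 (0.596 to 0.903), matched or undercut by 0.380%. From 113880001 to 114250000 it was 0.409 (0.177 to 0.804), with 8 hits at 2487 places, and from there to 115000000 it was 0.548 (0.390 to 0.748), with 39 hits. Together these parts reached 0.518 (0.381 to 0.688), and none of the 2368 windows was as low. Windows with fewer than 3000 input reads had been left out, so the thinnest windows of 1 Mb could not be among them.

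Farther out the 2 measures parted. From 115000001 to 115750000 the input rate per mappable position was 0.893 (0.712 to 1.11), while density was 0.628. From there to 116500000 the rate was 0.931 (0.740 to 1.16) and the density 0.615. Both rates lay within the middle 90% of autosomal windows, and both densities were below their intervals. In the distal flank the rate was 1.07 (0.896 to 1.27), at a density of 1.08.

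The ChIP library showed the same low rate beside the fall. Its rate was 0.461 (0.221 to 0.846) up to 114250000 and 0.505 (0.363 to 0.685) up to 115000000. Again none of the 2368 windows, which were kept by their input reads, was as low as these. The ChIP rate was 0.852 (0.685 to 1.05) and 0.769 (0.608 to 0.961) in the next 2 parts, and 1.05 (0.883 to 1.25) in the distal flank. The middle 90% of autosomal windows ran from 0.781 to 1.45 for ChIP, so the second of these values lay below it. With only the places read in the input both parts lay below their band, which then began at 0.782, at 0.745 and 0.762. The input rate was thus back in the usual range in both parts. The ChIP rate was so only in the first part, and only with the places of both kinds. The intervals of the 2 libraries overlap in both parts, so these rates alone do not show a difference between the libraries. Set directly against each other from 115000001 to 116500000, the libraries held 7173 ChIP and 8674 input reads. Scaled by the library totals this was a ratio of 0.783 (0.758 to 0.808), below equal shares. Before 113880001 the ChIP rate was 1.53 (1.42 to 1.66), at or above 96.6% of autosomal windows. The ChIP and input rates rest in part on the same coinciding reads, so they are not independent of each other.

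**Figure D3:**
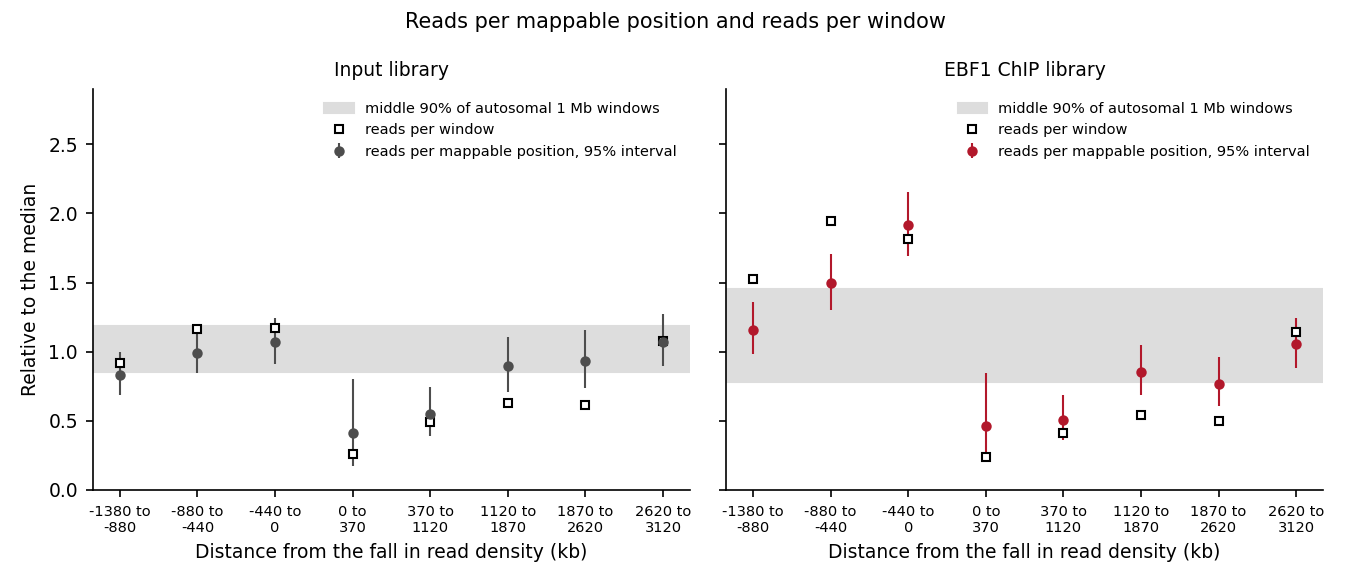
Reads per mappable position (filled points, 95% counting intervals) and reads per window (open squares), relative to the autosomal and chromosome 12 medians, in 8 parts of the region by distance from position 113880001, with the middle 90% of autosomal 1 Mb windows in grey. Up to 1120 kb behind the fall both measures are low in both libraries, and from 1120 to 2620 kb the input rate per mappable position is back within the grey band while reads per window are not.

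EBF1 ChIP reads were raised over input across most of the side before the fall. That side held 22265 ChIP and 13836 input reads, a scaled ratio of 1.52 (1.49 to 1.56), where 1 stands for equal shares of the 2 libraries. The stretch held 10800 and 13005, a ratio of 0.786 (0.766 to 0.806), and the distal flank 5269 and 5007, a ratio of 0.996 (0.958 to 1.04). The rest of chromosome 12 was at 0.987 (0.984 to 0.989). The ratio before 113880001 was 1.80 times that after it (1.75 to 1.86), and 1.94 times that of the stretch (1.87 to 2.00). It was 1.53 times that of the distal flank (1.46 to 1.60). Single windows varied more than counting gives: the variance of the ChIP counts was 3.37 times the binomial value before 113880001, 1.28 times in the stretch and 3.01 times on the rest of the chromosome. The intervals of these sums are therefore too narrow, in width by about the square root of these values.

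**Figure D4:**
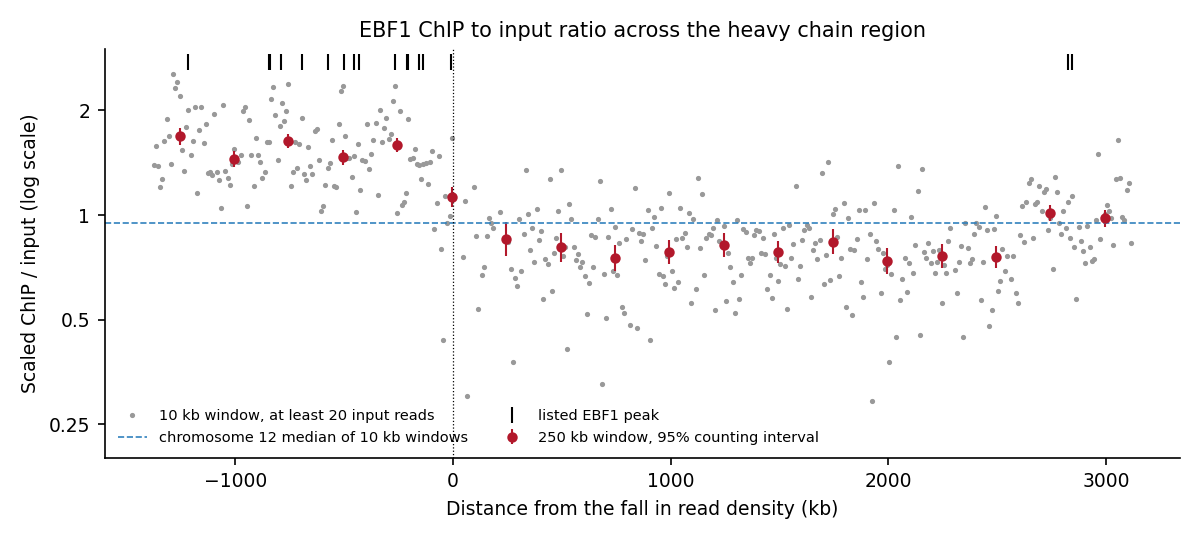
Scaled EBF1 ChIP to input ratio on a log scale in 10 kb windows with at least 20 input reads (grey) and in 250 kb windows with 95% counting intervals (red), against the distance in kb from position 113880001, with listed peaks as ticks. The first 5 windows of 250 kb lie between 1.45 and 1.68, those in the stretch between 0.737 and 0.856 and the last 2 near 1, while 15 of the 17 peaks lie before the fall.

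The ratio could be read in 435 windows with at least 20 input reads, 138 before and 297 after the fall. Before the fall the median window was at 1.47, with quartiles of 1.31 and 1.79. In the 247 such windows of the stretch the median was 0.782 (quartiles 0.670 and 0.912), and in the 50 of the distal flank it was 0.984. A ratio of at least 1.5 was reached by 62 of the 138 windows before the fall, 44.9%, by 0 of 247 in the stretch and by 1 of 50 in the flank. The background was 5.77% of windows on chromosomes 1 to 19 and 4.5% on the rest of chromosome 12. A ratio of at most 0.667 was found in 60 of the 297 windows after the fall, 20.2%, and in 1 of 138 before it, against 7.03% on chromosomes 1 to 19 and 7.54% on the rest of chromosome 12. Windows with few reads vary more. With at least 50 input reads there were 32 of 167 such windows after the fall, 19.2%, against 6.42%.

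In single windows 101 of 138 before the fall had an interval wholly above 1 (background 12.7%) and 1 had an interval wholly below 1. In the stretch 0 of 247 had an interval above 1 and 55 had one below 1 (background 12.6%). The ratio showed little trend with distance in the stretch, with Spearman's rho of -0.09 over 247 windows. The level moved little while input density rose from 0.260 to 0.622 of the median. It was 0.847 (0.769 to 0.933) up to 114250000, 0.778 (0.740 to 0.818) up to 115000000 and 0.783 (0.758 to 0.808) up to 116500000.

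In windows of 250 kb the ratio before the fall was 1.68, 1.45, 1.63, 1.47 and 1.59 from 112500001 to 113750000. Over the 9455 autosomal windows of that size with at least 500 input reads, the median was 0.963 and the middle 90% ran from 0.756 to 1.37. Between 0.212% and 2.76% of them were as high as these 5. The 10 windows from 114000001 to 116500000 ran from 0.737 to 0.856. The lowest, at 115750001, was undercut or matched by 2.05% of the 9455 and the highest by 29.9%. The side before the fall thus lay near the upper end of the genome, and the stretch mostly in the lower part of its usual range.

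The raised ratio did not rest on the listed peaks. Without every 1 kb bin that lay within 2 kb of a peak, it was 1.49 before 113880001, against 1.52 with them. It was also not carried up to the fall. In the last 80 kb, from 113800001, the ratio was 1.09 (0.994 to 1.19), and the preceding 800 kb, at 1.55 (1.51 to 1.59), stood 1.43 times higher (1.30 to 1.56). The windows at 113850001 and 113860001 had ratios of 0.946 (0.765 to 1.17) and 0.991 (0.798 to 1.23). The last window before the fall, at 113870001, which holds a listed peak, rose again to 1.66 (1.30 to 2.14).

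The windows with the highest ratios lay in a few neighbourhoods before the fall. The 4 adjoining windows from 112590001 to 112630000 had ratios of 2.55 (1.88 to 3.50), 2.32, 2.41 and 2.20, and none of them held a listed peak. Their input was 0.591 to 0.742 of the median, below the mean of that side. Their ChIP counts were 1.52 to 1.84 of the ChIP median, against a mean of 1.75 for that side. At 113040001 and 113050001 the ratios were 2.15 and 2.34, and at 113360001 and 113370001 they were 2.28 and 2.35. Single windows at 113120001 (2.38) and 113610001 (2.35) made up the rest of the 10 highest. Of these 10, 3 held a listed peak, while all 138 windows of that side together held 15 peaks. The 5 lowest ratios were all in the stretch, from 0.291 (0.139 to 0.568) at 115800001, with 12 ChIP and 39 input reads, to 0.379 at 114150001 and 115880001. Each of those 5 windows held at most 39 input reads.

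High input was also gathered before the fall. Input of at least 1.5 times the median was found in 7 of 138 windows there, in 0 of the stretch and in 1 of the flank, against 0.907% of windows on chromosomes 1 to 19. The highest was the window at 113670001, with 219 input and 436 ChIP reads. Next came the neighbours at 113850001 and 113860001, with 179 and 169 input and 179 and 177 ChIP reads. These last 2 lie 10 to 30 kb before the fall, so the drop starts from above the usual density.

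The authors' list held 17 EBF1 peaks in the region, of 256 on chromosome 12 and 7424 in all. Before the fall there were 15, or 11.0 per Mb of sequence with input reads (6.17 to 18.2). The rest of chromosome 12 had 2.25 (1.97 to 2.55) and the autosomes 3.20 (3.12 to 3.27). From 113000001 to 113800000 alone there were 13, or 16.5 per Mb (8.80 to 28.2). The stretch held 0 peaks in 2430 kb with input reads, or 0 per Mb (0 to 1.52). Stretches without a peak are not rare: 135 of 875 autosomal windows of 2620 kb, 15.4% (13.1 to 18.0%), also held 0. The lower read density of the stretch also lowers the count that a site of given strength would reach, and its part in the missing peaks was not tested. The distal flank held 2 peaks.

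The scores of 3 peaks stood apart from the rest. The score is the peak caller's own value, as the authors deposited it, with a list median of 6.07. All 3 lay 264 to 204 kb before the fall. The first, chr12:113616151-113616300, scored 30.5. Its 150 bp took 62 reads from the ChIP library and 1 from the input, so the ratio was 58.7 (10.1 to 2355). The next, chr12:113670661-113670810, scored 21.2, with 63 and 3 reads and a ratio of 19.9 (6.50 to 99.0). The last, chr12:113676131-113676280, scored 32.4, with 69 and 1 reads and a ratio of 65.3 (11.3 to 2616). The last 2 of the 3 were 5.47 kb apart and shared the window of highest input and ChIP counts. In the whole list the 3 ranked 196, 403 and 170 by score, and on chromosome 12 only 5 peaks outside the region scored higher than the one at 113676131. The peaks were called on these same reads, so the ratios are raised by that choice.

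At a bound site, plus-strand reads of a ChIP library lie to the left and minus-strand reads to the right. The 3 strong peaks had this arrangement. Within 200 bp to the left of their centres the ChIP library held 45, 34 and 49 reads on the plus strand, against 11, 4 and 4 to the right. On the minus strand it held 12, 7 and 9 to the left and 36, 41 and 38 to the right. In 1 kb around the centre the ratios were 7.87 (4.67 to 14.2), 5.32 (3.32 to 8.91) and 4.85 (3.11 to 7.86), lower than in the 150 bp of the peaks. The signal at each of the 3 places was therefore narrow.

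**Figure D5:**
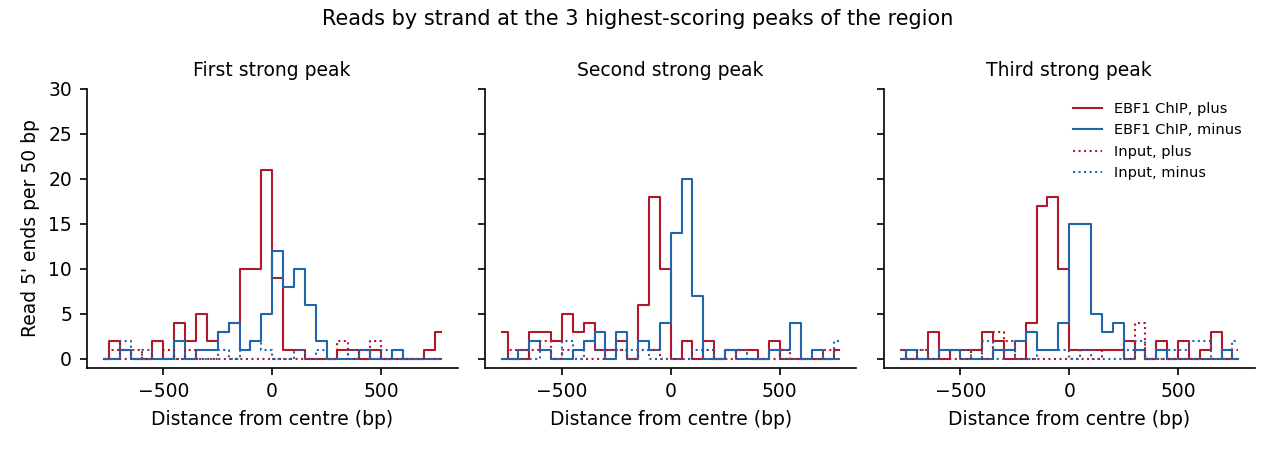
Read 5′ ends per 50 bp by strand around the centres of the 3 highest-scoring peaks, in order along the chromosome, with EBF1 ChIP as solid and input as dotted lines. In each, plus-strand ChIP reads lie mostly left and minus-strand reads mostly right of the centre, and input stays near 0.

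The other 12 peaks before the fall had fewer reads. Their scores ran from 5.04 to 8.86, with 8 of the 12 above the list's median, and they held 6 to 24 ChIP and 0 to 7 input reads. In 1 kb around the centre their ratios ran from 1.82 to 7.81, with an interval above 1 in 11 of 12. The strongest of them by score was chr12:113377871-113378020, with 24 ChIP and 4 input reads. Its ratio was 5.68 (1.95 to 22.5), and 12 plus-strand ChIP reads lay left and 20 minus-strand reads right of the centre. Next by score was chr12:113424381-113424530, with 9 ChIP and 0 input reads, 2.84-fold above a floor of 3 input reads. The lower limit of the interval of its ratio was 1.87. The peaks chr12:113036411-113036560 and chr12:113041701-113041850 were 5.29 kb apart, with 6 ChIP and 0 input reads in the first and 11 and 1 in the second.

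The remaining peaks of these 12 were spread over the side. Those with 11 ChIP reads were chr12:112662681-112662830 (0 input reads), chr12:113092331-113092480 (1 input read) and chr12:113187271-113187420 (2 input reads). The peak chr12:113305001-113305150 held 8 and 0 reads, and chr12:113447761-113447910 held 16 and 1, a ratio of 15.1 (2.35 to 635). Between the strong peaks and the fall lay chr12:113723891-113724040, with 12 and 2 reads, and chr12:113742481-113742630, with 13 and 3. Only 4 of the 12 had 0 input reads, and at such counts their order by ratio is not resolved.

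The peak nearest to the fall was chr12:113871741-113871890, centred 8.19 kb before it. Its score was 5.54, with 19 reads from the ChIP library and 7 from the input, giving a ratio of 2.57 (1.03 to 7.23), the lowest of the 17 among peaks with an input read. In 1 kb around it were 44 and 19 reads, and the ratio was 2.19 (1.25 to 3.97). On the far side the first peaks were chr12:116704911-116705060, with a score of 10.3, 23 ChIP and 2 input reads and a ratio of 10.9 (2.69 to 95.2), and chr12:116723361-116723510, with a score of 5.29, 8 and 0 reads. Between the peak nearest the fall and these lay 2833 kb without a listed peak.

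Local ChIP signal was also counted in bins of 500 bp, whatever the list held. At least 20 ChIP reads at a ratio of at least 5 were found in 9 of the 8359 bins with a read in the region, 0.108%. The background was 0.0912% of such bins on the autosomes, so the share of the region as a whole was close to it. By side, 8 of 2707 bins passed before the fall, 0.296%, 0 of 4678 in the stretch and 1 of 974 in the distal flank. The 3 highest, with 108, 90 and 107 ChIP against 6, 8 and 7 input reads, belonged to the strong peaks. Another 3 of the 9 had no listed peak within 500 bp. They were chr12:113522501-113523000, with 38 and 7 reads and a ratio of 5.14 (2.27 to 13.6), and the adjoining chr12:113169501-113170000 and chr12:113170001-113170500, with 22 and 4 and with 20 and 3. In the stretch no bin reached 20 ChIP reads. Its fullest bin, chr12:116495501-116496000, at the far end, had 15 and 5 reads and a ratio of 2.84 (0.981 to 9.99). The 2 adjoining bins and this one were picked out after their values had been seen.

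At a limit of 10 ChIP reads 104 bins of the region passed, 1.24%, against 0.723% on the autosomes. Before the fall 97 did, 3.58%, and the ratio there was raised over most of the side, peaks or not. In the stretch 2 did, 0.0428%, and in the distal flank 5 did, 0.513%. The limit is a fixed number of reads, which the thin stretch reaches less readily, and the part of read density in its low count was not tested.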

How the data were processed

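Per line, the 2 files of reads deposited by the authors hold 1 aligned read of 35 bp with its position and strand and no other value. The peak list the authors deposited gives a score per 150 bp peak, on a scale that no source used here defines. How reads were aligned, filtered and stripped of repeats, and which control the peak caller had, is not given in the sources used here. Per the submitters' processing notes, coordinates are in mm8 and HOMER was among the tools. On chromosome 12 no position and strand occurred more than once in a library, so counts in strong peaks are limited from above.

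Here 5′ ends were counted in 10 kb windows. ChIP to input ratios were divided by 1.06, which is 24337709 ChIP over 23033569 input reads (autosomes, X and Y), with exact conditional binomial (Clopper-Pearson) 95% intervals. Intervals of sums are exact Poisson, and those of a fold between 2 sides are normal on the log scale. Reads carry no molecular identifiers, so PCR copies cannot be told from separate molecules, and intervals cover counting error only. In peaks, 5′ ends were moved 100 bp towards the 3′ end. Where a count was 0, 3 counts were used as the floor. Covered sequence means 1 kb bins with an input read.

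Named items were every listed peak, the windows with the 10 highest and 5 lowest ratios, the 5 with the lowest input among those with at least 8 covered bins, the 5 with the highest input, 4 on each side of 113880001, and the 5 bins of 500 bp with the most ChIP reads at a ratio of at least 5. The region, its limit and these lists were chosen with earlier results of these data known. Simulated windows were used to check the ratio and the share of intervals that hold it. Their counts varied by counting error alone, so this check does not cover the extra variance between real windows. Alternatives covered scaling, read position, peaks, window size, limits and covered bins. The software was Python 3.11.15 with scipy 1.17.1, pandas 2.3.3, numpy 2.4.6 and, for plots, matplotlib 3.10.9.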

Additional observations from a re-analysis of the deposited data

How the results depend on the processing

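Of 39 recomputed values 21 stayed within their interval, or within 1.5 times for a count, and 18 moved. No ratio or density changed direction, and a count has none to change. Some of the 21 were fixed in advance, since the fold between the sides does not depend on the scaling. The ratio before 113880001 was 1.61 scaled by the chromosome 12 median ratio, 1.49 without bins near peaks and 1.56 with the limit 100 kb earlier. The input density after over before was 0.595 with the limit 100 kb earlier, 0.623 with it 100 kb later, 0.598 over windows with at least 8 covered bins and 0.495 with the far side ended at 116500000. That last setting, chosen after seeing the data, gave a fold of 1.94 between the ratios of the sides. Windows of 25 kb gave 27 with a ratio of at least 1.5 before, 15 at most 0.667 after and 50 of 124 with input at most 0.5 after. A ratio limit of 2 gave 17 and 13 windows, and 50 input reads gave 32 low windows. Input at most 0.25 was found in 23 windows. A score of at least 10 left 4 peaks. Bins with local signal numbered 104 at 10 ChIP reads and 21 at 1 kb. No background share is given for windows of 25 kb, a ratio limit of 2 or bins of 1 kb. Whether the counts at these settings exceed the rest of the genome was therefore not tested. Larger windows and stricter limits leave fewer items by construction, and for the other shifts the cause was not tested. No window exceeded 3 times the median input, so leaving such windows out changed nothing, and the values of that setting are also among the 21. Depth limits single windows of the stretch, of which 15 held under 20 input reads. No paired analysis was possible because there was only 1 library of each kind.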

Other observations

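The 5 windows with the lowest input among those with at least 8 covered bins were spread over the stretch. They were at 114070001 (17 input and 26 ChIP reads), 113950001 (18 and 16), 113960001 (19 and 17), 115600001 (20 and 30) and 114310001 (21 and 16). In 2 of them, at 114070001 and 115600001, ChIP reads exceeded input, with ratios of 1.45 (0.756 to 2.84) and 1.42 (0.780 to 2.64), intervals that include 1.

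Reads of the input were near evenly split between the strands before the fall, with 49.8% on the plus strand (49.0 to 50.6%), and over the whole stretch, with 50.3% (49.4 to 51.1%). Within the stretch the share was 44.4% (41.1 to 47.7%) up to 114250000, 48.7% (47.0 to 50.3%) up to 115000000 and 51.5% (50.4 to 52.6%) beyond. The first and the last of these intervals exclude 50%, and these were chosen among several parts after the values were seen.

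Input and ChIP counts of the same 10 kb window rose and fell together, with Spearman's rho of 0.82 over 239 well-covered windows of the stretch and 0.55 over 135 before the fall. The windows of both libraries share their mappable sequence, and input spans a wider relative range in the stretch.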
